A study of Mus musculus with 6 samples.

Results

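RNA of wildtype mouse chondrocytes in micromass culture was compared between day 14 and day 7 of differentiation. The comparison rests on 2 of the 6 libraries of the series, 1 wildtype library at day 14 and 1 at day 7, and takes in every gene of the deposited count table. The cells were labelled immature mouse chondrocytes of strain C57BL/6 - mix, taken at postnatal day 5 from hip and knee cartilage (femoral head, femoral condyles and tibial plateau). All 6 libraries came from micromasses kept in serum-containing medium with insulin, transferrin, selenium, ascorbic acid and beta-glycerol phosphate. The other 4 libraries were wildtype at day 3 and Ezh2-deficient at days 3, 7 and 14. The labels used here name neither the allele nor the Cre driver of the deficiency, and do not say how many animals went into a micromass. With 1 library a side there is no replicate check, no test was run, and the day cannot be told apart from the library.

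Micromass culture packs chondrocytes at high density, and ascorbic acid and a phosphate donor let them lay down and mineralise matrix. In the growth plate, chondrocytes first make a matrix of type II collagen and aggrecan, then enlarge into hypertrophic cells that make type X collagen. The matrix around the most mature cells calcifies through genes shared with osteoblasts, such as alkaline phosphatase and bone sialoprotein. Ezh2 is the catalytic subunit of Polycomb repressive complex 2, which methylates histone H3 at repressed genes.

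The day 7 library held 65461350 counts and the day 14 library 51985214. Levels are counts scaled to a library of 1000000 (CPM), with library sizes corrected by TMM, the trimmed mean of M values. A pair of CPM values is given in the order day 7, day 14. Every count was even, so 2 counts were taken as 1 sequenced fragment. Each ratio carries an exact 95% interval computed from fragments, which covers counting error only and says nothing of the spread between cultures. In these bulk libraries, fewer cells of a type and less RNA per cell cannot be told apart. The 12 chondrocyte markers were all present at both days, and their summed level was 75079 CPM at day 7 and 35274 CPM at day 14, so the defining markers of the labelled cell type were present. The 20 macrophage markers were also all present, and their sum was 1948 CPM at day 7 and 2869.9 CPM at day 14. Ezh2 itself stood at 24.6, 40.3 and 27.9 CPM in the wildtype libraries of days 3, 7 and 14, and at 14.7, 23 and 17.6 CPM in the Ezh2-deficient ones. Gene-level counts do not show which exons were deleted.

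Of 23358 entries in the table, 13517 reached 1 CPM in the higher of the 2 wildtype libraries. A gene was called when its level differed at least 2-fold (log2 ratio with a prior count of 2) and its interval lay off 1. By this rule 497 genes (3.68%) were called higher at day 14 and 430 genes (3.18%) were called lower. The middle of the distribution lay near 0, with a median log2 ratio of -0.0073 and quartiles at -0.20 and 0.18. The large differences were uneven between the directions. At least 4-fold differences numbered 150 higher and 67 lower, and at least 10-fold differences 59 higher and 4 lower. The interval, which allows for counting error alone, lay off 1 for 7598 genes (56.2%). At this depth the fold threshold, not the interval, therefore decided most calls. Counts over gene lists below cover the members that reached 1 CPM in either library. Each such count is to be read beside the 3.68% of all genes called higher and the 3.18% called lower. A member that reached it only through the library where it was high had to differ, so these counts and medians describe the members and are no evidence on the list as a whole.

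**Figure D1:**
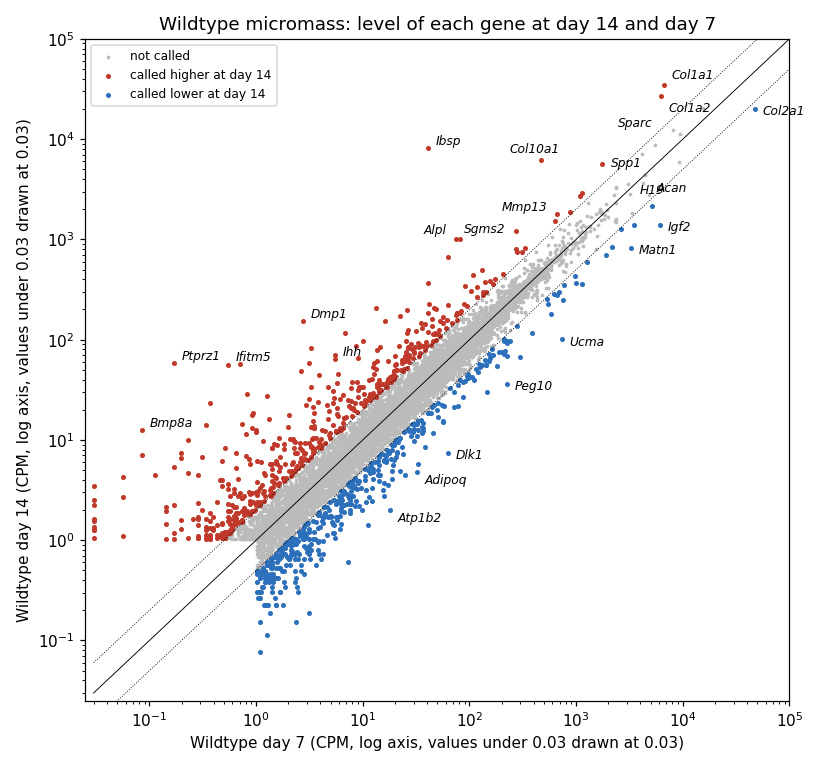
Level of each gene in wildtype micromass at day 7 (x axis) and day 14 (y axis) in CPM on log axes. Red points are the 497 genes called higher at day 14, blue points the 430 called lower, grey points the rest, the solid line equality and the dotted lines 2-fold differences. Ibsp stands far above the line at 40.5 and 8237 CPM, while Col2a1 lies below it and Col1a1 above it.

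The bone sialoprotein gene Ibsp, whose acidic glycoprotein binds hydroxyapatite, had a larger ratio than all other annotated genes reaching 10 CPM except Ptprz1. It stood at 14.4 CPM on day 3, 40.5 on day 7 and 8237 on day 14, which made day 14 203-fold higher (interval 193 to 214) than day 7. Its place among genes is best read per length. On the deposited RPKM scale Ibsp was at 18.0 at day 7 and 3445 at day 14, against 8078 and 3213 for Col2a1. At day 14 the per-length level of Ibsp was therefore above that of the main cartilage collagen.

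Ptprz1, a receptor-type tyrosine phosphatase, had the highest ratio. It rested on 12 counts at day 7 and 3114 at day 14, or 0.171 and 59.1 CPM, and was 346-fold higher (interval 159 to 945). The width of this interval shows how little the few day 7 fragments fix the size. Next came Bmp8a, a ligand of the bone morphogenetic protein family, with 6 and 668 counts, or 0.0853 and 12.7 CPM (149-fold, interval 50.4 to 724). Ifitm5, a membrane protein of mineralising osteoblasts, was at 0.540 and 55.7 CPM (103-fold, interval 65.8 to 172). Col13a1, a transmembrane collagen, was at 0.711 and 57.6 CPM and was 81.1-fold higher (interval 54.7 to 126). Among the rest of the 12 largest ratios were those of Insc (log2 ratio 5.85), Dmp1 (5.79), Gucy1a3 (5.24), Gpr133 (5.06), Ppm1e (4.42) and Adamts18 (4.26). All 12 were also called higher between days 7 and 14 in the Ezh2-deficient pair, as were 68.8% of all genes called higher in wildtype. In that pair 5.31% of genes were called higher and 5.83% lower. The log2 ratios of the 12 ran there from 3.67 for Dmp1 to 6.94 for Ibsp.

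Among genes at 10 CPM or more, the largest ratios in the lower direction were smaller. Atp1b2, a beta subunit of the sodium-potassium pump, was at 18.1 CPM at day 7 and 2.01 CPM at day 14 (8.99-fold lower, interval 6.79 to 12.1). Dlk1, a transmembrane protein known from preadipocytes, was at 62.3 and 7.48 CPM (8.34-fold lower, interval 7.21 to 9.70), and the transcription factor Sox11 at 11.2 and 1.40 CPM (7.98-fold lower, interval 5.69 to 11.5). Ucma, a small secreted protein of the upper growth plate, was at 733 and 101 CPM, 7.29-fold lower (interval 7.01 to 7.59). The remaining 8 of the 12 were Adipoq (log2 ratio -2.75), Peg10 (-2.62), Ntng2 (-2.51), Calml3 (-2.5), Scube2 (-2.45), Zim1 (-2.29), Cmtm5 (-2.29) and Ramp2 (-2.28). Scube2, a secreted factor that helps release hedgehog ligands, was the only member of the 12 not called lower in the Ezh2-deficient pair, where it was at 7.38 and 5.75 CPM. Of all genes called lower in wildtype, 66.5% were called lower in that pair.

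The largest differences in absolute level were those of collagens, with cartilage collagen lower and bone collagen higher at day 14. Col2a1, the type II collagen of cartilage, stood at 78869 CPM on day 3, 47720.2 on day 7 and 20172 on day 14, and was 2.37-fold lower (interval 2.36 to 2.37) at day 14 than at day 7. It took 5.13% of all counts at day 7 and 2.04% at day 14. Col1a1 and Col1a2, the chains of type I collagen, differed the other way. Col1a1 stood at 701 CPM on day 3, 6613 on day 7 and 34543 on day 14 (5.22-fold higher, interval 5.20 to 5.25 at day 14), and Col1a2 at 1031 CPM on day 3, 6193 on day 7 and 26735 on day 14 (4.32-fold higher, interval 4.30 to 4.34). On the RPKM scale Col1a1 was at 1223 and Col2a1 at 8078 at day 7, and at 6012 and 3213 at day 14, so their order differed between the libraries. Predicted, clone and RNA-class symbols were left out of the rankings by CPM difference, among them Rn45s, a ribosomal RNA precursor. Rn45s took 1.66% of all counts at day 7 and 2.06% at day 14. The other ranked genes with the largest excess in CPM at day 14 were Ibsp, Col10a1, Sparc, Spp1, Lars2, Col3a1, Col5a2 and Fn1. Of these, Sparc, Lars2, Col3a1 and Fn1 were under 2-fold. The largest deficits in CPM after Col2a1 were those of Igf2, H19, Col11a1, Matn1, Acan, Col9a1, Col11a2, Itm2a and Col9a3.

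All 7 cartilage collagen genes were lower at day 14, and 4 of them passed the 2-fold rule. Their median log2 ratio was -1.09, and their summed level was 68769.5 CPM at day 7 and 31547 CPM at day 14. Besides Col2a1, those called were Col9a3 (2170.1 and 847 CPM, 2.56-fold lower, interval 2.52 to 2.60) and Col9a1 (3483 and 1400.0 CPM, 2.49-fold lower, interval 2.46 to 2.52), chains of the type IX collagen that coats cartilage fibrils, and Col27a1 (1263 and 595 CPM, 2.12-fold lower, interval 2.08 to 2.16). Col9a2 (1.92-fold lower, interval 1.89 to 1.95), Col11a2 (1.82-fold lower, interval 1.80 to 1.84) and Col11a1 (1.57-fold lower, interval 1.56 to 1.58) stayed under the 2-fold line. Each of the 7 was already lower at day 7 than at day 3, for example Col11a2 at 9058 CPM at day 3 and 3330.4 CPM at day 7.

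Of the 20 cartilage proteoglycans and other matrix proteins, 6 were called lower and 2 higher, with a median log2 ratio of -0.45. Matn1, a matrilin that links fibrils and aggrecan, was at 4401 CPM on day 3, 3289 on day 7 and 828 on day 14 (3.97-fold lower, interval 3.91 to 4.03). Epyc, a small leucine-rich proteoglycan, was at 388 and 117 CPM (3.32-fold lower, interval 3.20 to 3.46). Lect1, which encodes the anti-angiogenic chondromodulin, was at 1885 and 705 CPM (2.67-fold lower, interval 2.63 to 2.72). Scrg1 (3.22-fold lower, interval 3.06 to 3.39), Matn3 (2.18-fold lower, interval 2.13 to 2.23) and Ucma completed the 6.

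Aggrecan itself, the main cartilage proteoglycan, was 1.75-fold lower (interval 1.74 to 1.77), at 14421, 4828 and 2753 CPM on days 3, 7 and 14. The largest part of its difference thus lay between days 3 and 7. The link protein gene Hapln1 was at 4238 and 3615 CPM, and Comp, a pentameric matrix protein, at 1527 and 1781 CPM (1.17-fold higher, interval 1.15 to 1.18), so these cartilage genes differed little. The 2 genes called higher were Chad, a cell-binding leucine-rich protein (47.0 and 205 CPM, 4.37-fold higher, interval 4.13 to 4.62), and Cilp (2.62 and 6.64 CPM, 2.54-fold higher, interval 1.96 to 3.30).

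Enzymes that build and sulphate chondroitin chains were mixed, with 3 of 19 called lower and 2 higher. Papss2, which makes the sulphate donor, was at 623 and 284 CPM (2.19-fold lower, interval 2.13 to 2.25), Csgalnact1, which starts the chain, at 142 and 56.2 CPM (2.54-fold lower, interval 2.39 to 2.69), and Xylt1, which adds the first sugar to the core protein, at 164 and 80.0 CPM (2.05-fold lower, interval 1.95 to 2.15). The sulphotransferases Chst15 (9.61 and 33.5 CPM) and Chst13 (0.114 and 4.52 CPM) were called higher.

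The chondrocyte transcription factors did not differ as a block. Sox9, the master regulator of cartilage genes, was at 334, 306 and 189.9 CPM on days 3, 7 and 14 and was 1.61-fold lower (interval 1.56 to 1.67). Its partner Sox5 was called lower, at 78.8 and 35.1 CPM (2.24-fold lower, interval 2.08 to 2.42), while Sox6, the other partner, was 1.36-fold lower (interval 1.29 to 1.43). Nkx3-2 was also called lower (8.31 and 3.45 CPM, 2.40-fold lower, interval 1.89 to 3.08). Mef2c, which drives hypertrophy, was the 1 member of 13 called higher, at 65.6 CPM on day 3, 139.9 on day 7 and 373 on day 14 (2.66-fold higher, interval 2.57 to 2.76).

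Hypertrophic chondrocyte genes were higher with few exceptions: 13 of 17 were called higher, none lower, and the median log2 ratio was 2.05. Of the 13, Ibsp, Spp1, Alpl, Phospho1, Runx2, Sp7, Mef2c, Mmp13, Ihh and Pth1r also stand in other lists below or above. Col10a1, the type X collagen specific to hypertrophic cartilage, was nearly level between day 3 (366 CPM) and day 7 (463 CPM) and stood at 6127 CPM at day 14, 13.2-fold higher (interval 13 to 13.4). Panx3, a channel protein of hypertrophic cells and osteoblasts, was at 191 CPM on day 3, 63.3 on day 7 and 667 on day 14, lowest at day 7, and was 10.5-fold higher (interval 10.1 to 11). Mmp13, the collagenase of late hypertrophic cartilage, stood at 286 CPM on day 3, 658 on day 7 and 1800.3 on day 14 (2.74-fold higher, interval 2.69 to 2.78). The sodium-calcium exchanger gene Slc8a3 was at 48.5 and 200.4 CPM. Sema3d, Pdzrn4 and Steap4 of the list were not called. The angiogenic factor Vegfa, at 132 and 250.4 CPM, was 1.9-fold higher (interval 1.83 to 1.98) and was just short of the 2-fold line.

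The ligand Ihh and the receptor Pth1r, which sit on either side of the feedback loop that paces hypertrophy, were both called higher. Ihh was at 6.65 CPM on day 3, 5.46 on day 7 and 63.8 on day 14 (11.7-fold higher, interval 10.1 to 13.6), and Pth1r at 119 CPM on day 3, 107 on day 7 and 446 on day 14 (4.17-fold higher, interval 4.02 to 4.32). Pthlh, the ligand of Pth1r, differed the opposite way, with 266 counts (3.78 CPM) at day 7 and 50 counts (0.949 CPM) at day 14, 3.99-fold lower (interval 2.59 to 6.38). The transcriptional targets of hedgehog signalling differed less than the ligand. Gli1 was at 69.5 and 77.1 CPM, Ptch1 at 325 and 467 CPM and Hhip at 248 and 397 CPM, none of them called. The hedgehog co-receptors Boc (2.32-fold lower, interval 2.19 to 2.46) and Gas1 (2.27-fold lower, interval 2.14 to 2.42) were called lower, which made 2 of 16 members called higher and 3 lower (18 were listed).

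Markers of the articular surface, by contrast, showed no common direction, with 1 of 11 called higher and 2 lower (12 listed). Prg4, the gene of the lubricant lubricin, was at 33.3, 16.8 and 19 CPM on days 3, 7 and 14. Sfrp5 (77.9 and 21.9 CPM, 3.57-fold lower, interval 3.26 to 3.91) and Gdf5, a joint-forming ligand (12.4 and 4.78 CPM, 2.59-fold lower, interval 2.12 to 3.19), were called lower, and Thbs4 (53.0 and 152 CPM) was called higher.

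**Figure D2:**
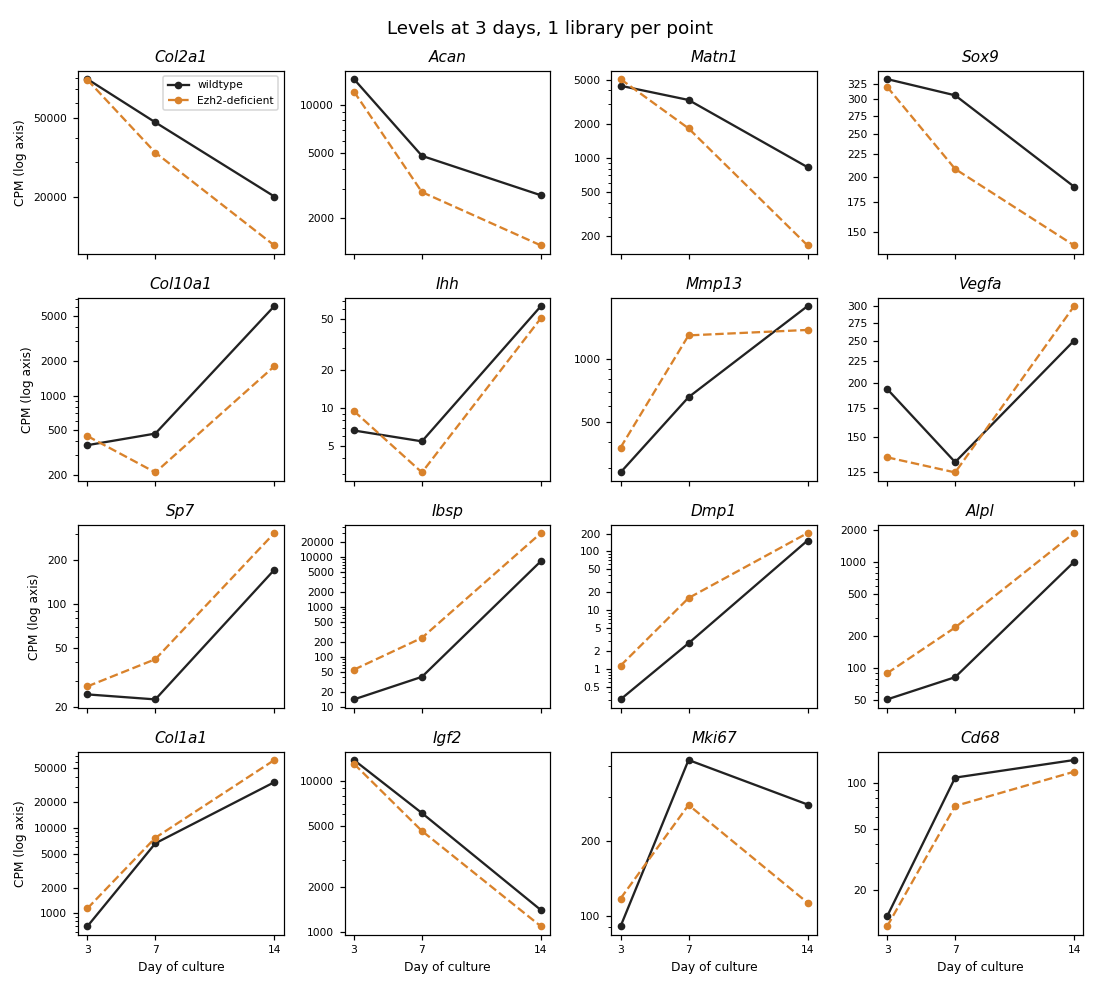
Level in CPM (log y axis, scaled per gene) of 16 genes at days 3, 7 and 14, in wildtype (black, solid) and Ezh2-deficient (orange, dashed) libraries, 1 library per point. Col2a1, Acan, Matn1 and Igf2 descend over the 3 days in wildtype, while Col10a1, Ihh, Sp7 and Alpl are nearly level or low until day 7 and higher at day 14. Mki67 peaks at day 7, at 422 CPM in wildtype.

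Transcription factors of the osteoblast lineage included 7 called higher and 2 called lower of 15. Sp7, which encodes osterix, was at 24.2 CPM on day 3, 22.4 on day 7 and 172 on day 14 (7.67-fold higher, interval 7.11 to 8.29), and Runx2, which acts upstream of it, at 58.1 CPM on day 3, 88.0 on day 7 and 228 on day 14 (2.60-fold higher, interval 2.49 to 2.71). Tcf7 (11.4-fold), Dlx3 (8.18-fold), Dlx6 (3.12-fold) and Dlx5 (2.33-fold) were also called higher. The remaining member called higher, not named here, had the largest ratio of the list, at 25.2-fold (log2 ratio 4.64). The members called lower were Twist2, which holds back osteoblast genes (7.05 and 2.31 CPM, 3.05-fold lower, interval 2.29 to 4.10), and Lef1 (16.7 and 7.93 CPM, 2.11-fold lower, interval 1.80 to 2.48). Sp7 and Tcf7 (4.41 CPM on day 3, 3.90 on day 7 and 44.4 on day 14) differed little between days 3 and 7, so their difference lay between days 7 and 14.

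Bone matrix proteins had 13 of 18 members called higher and none lower (20 listed), with a median log2 ratio of 2.47. Their summed level was 24233 CPM at day 7 and 91281 CPM at day 14, most of it type I collagen. Dmp1, an acidic matrix protein of osteocytes and late osteoblasts, was at 0.302 CPM on day 3, 2.73 on day 7 and 153 on day 14 (55.9-fold higher, interval 45.7 to 69.2). Bglap and Bglap2, neighbouring and nearly identical osteocalcin genes whose reads may have been split between them, were at 5.55 and 70.9 CPM (12.8-fold higher, interval 11 to 14.9) and 1.31 and 16.3 CPM (12.4-fold higher, interval 9.17 to 17.3). Spp1, osteopontin, was already abundant at day 7 and was at 1738 and 5699 CPM (3.28-fold higher, interval 3.25 to 3.31). Sgms2, a sphingomyelin synthase (75.2 and 999.7 CPM, 13.3-fold higher, interval 12.8 to 13.8), Tmem119 (40.6 and 371 CPM, 9.14-fold higher, interval 8.65 to 9.67) and Col24a1 (13.5 and 79.5 CPM, 5.88-fold higher, interval 5.32 to 6.51) were also called. Sparc, or osteonectin, was among the most abundant genes at both days, at 8141 and 12453 CPM (1.53-fold higher, interval 1.52 to 1.54), and Omd was at 390.3 and 356 CPM. Dspp, the dentin gene of the list, stayed under 1 CPM.

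Genes that handle phosphate and pyrophosphate at the mineral front had 6 of 15 members called higher and none lower (17 listed). Alpl, the alkaline phosphatase that destroys the mineral inhibitor pyrophosphate, was at 50.8 CPM on day 3, 82.3 on day 7 and 1011 on day 14 (12.3-fold higher, interval 11.8 to 12.8). Phospho1, a phosphatase of matrix vesicles, was at 5.41 CPM on day 3, 14.4 on day 7 and 84.6 on day 14 (5.89-fold higher, interval 5.34 to 6.50). Phex, a membrane endopeptidase that limits phosphate wasting, was at 2.87 CPM on day 3, 8.62 on day 7 and 86.8 on day 14 (10.1-fold higher, interval 8.93 to 11.4), and the citrate transporter gene Slc13a5 at 13.2 CPM on day 3, 13.3 on day 7 and 208 on day 14 (15.6-fold higher, interval 14.2 to 17.2). The mineralisation inhibitor Mgp stayed high at 1978 and 1682 CPM. Enpp1, which makes pyrophosphate, was at 108 and 123 CPM, and Ank, which exports it, at 96.9 and 137 CPM, none of the 3 called.

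Osteocyte genes showed the highest list median, 3.33, with 7 of 11 called higher, but several rested on few counts at day 7. The remaining listed member, Fgf23, a phosphate hormone, was listed at 0 in both libraries. Sost, the gene of the Wnt inhibitor sclerostin, rested on 2 counts at day 7 and 118 at day 14, or 0.0284 and 2.24 CPM (ratio interval 13.6 to 3161). Mepe, a matrix phosphoglycoprotein, had 10 and 104 counts (0.142 and 1.97 CPM), and the Wnt inhibitor gene Dkk1 14 and 386 counts (0.199 and 7.32 CPM). Irx5 (3.78 and 24.1 CPM), Phex, Dmp1 and Ptprz1 were the other 4. Pdpn, expressed early in osteocyte formation, was at 55.6 and 59.6 CPM and was not called.

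The promoters of 4 called genes are shown, Ibsp and Bglap of the bone matrix list and Mmp13 and Col10a1 of the hypertrophic list, since these genes mark the mineralising matrix. Sequences are the 250 bases before the gene start from RefSeq (build GRCm38.p6, the mm10 assembly), 5′ to 3′ on the gene's strand. Capitals mark the RUNX core letters TGTGGT and the TATA box letters TATAAA on either strand. They come from chr5:104299037-104299286 (plus strand), chr3:88384467-88384716 (minus strand), chr9:7272264-7272513 (plus strand) and chr10:34389731-34389980 (plus strand).
Ibsp: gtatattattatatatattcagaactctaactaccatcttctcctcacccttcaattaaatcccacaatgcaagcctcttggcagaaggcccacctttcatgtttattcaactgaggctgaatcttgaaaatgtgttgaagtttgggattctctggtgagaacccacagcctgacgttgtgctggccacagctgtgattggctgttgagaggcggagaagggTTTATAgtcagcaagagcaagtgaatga
Bglap: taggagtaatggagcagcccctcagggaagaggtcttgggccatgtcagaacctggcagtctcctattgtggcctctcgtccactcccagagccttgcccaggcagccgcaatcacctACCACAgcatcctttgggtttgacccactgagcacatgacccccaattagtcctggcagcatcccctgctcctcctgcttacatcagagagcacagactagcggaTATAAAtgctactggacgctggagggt
Mmp13: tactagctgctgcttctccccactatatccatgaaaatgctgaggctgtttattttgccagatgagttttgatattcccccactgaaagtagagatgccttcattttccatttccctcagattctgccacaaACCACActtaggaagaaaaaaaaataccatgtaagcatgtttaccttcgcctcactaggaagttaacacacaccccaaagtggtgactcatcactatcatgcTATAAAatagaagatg
Col10a1: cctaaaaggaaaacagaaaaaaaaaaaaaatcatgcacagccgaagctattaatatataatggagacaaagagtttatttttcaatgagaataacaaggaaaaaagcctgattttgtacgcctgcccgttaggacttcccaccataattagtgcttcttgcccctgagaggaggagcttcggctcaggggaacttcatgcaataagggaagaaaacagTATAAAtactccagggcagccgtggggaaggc

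Ibsp holds TATAAA on the opposite strand starting 28 bases before the gene start and no RUNX core in this window. Bglap holds a RUNX core, read on the opposite strand, 132 bases before its start and TATAAA at 27 bases, Mmp13 a RUNX core, also on the opposite strand, at 118 bases and TATAAA at 16 bases, and Col10a1 TATAAA at 32 bases. Over windows of 300 bases (250 before to 50 after the start), the RUNX core was present for 6 of the 15 bone matrix genes that matched a promoter (40.0%) and for 4 of 15 hypertrophic genes (26.7%), against 5113 of 27025 genes (18.9%). The TATA box was present for 4 of 15 bone matrix genes (26.7%) and 15.7% of all, and it was not counted over the hypertrophic list. The marked RUNX and TATA letters do not overlap each other. A match of letters is a description of the window and does not show that a factor binds there.

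Among other collagens, those of fibrous tissue had 5 of 16 called higher and 2 lower. After Col1a1 and Col1a2 these were Col5a2 (1143 and 2888 CPM, 2.53-fold higher, interval 2.5 to 2.56) and Col5a1 (1076 and 2705 CPM, 2.51-fold higher, interval 2.48 to 2.54), which regulate the width of type I fibrils, and Col8a1 (74.6 and 178 CPM). Col3a1 was at 581 CPM on day 3, 4146 on day 7 and 7154 on day 14 and was 1.73-fold higher (interval 1.71 to 1.74), under the line. Col15a1 (2.20-fold lower, interval 1.98 to 2.44) and Col14a1 (2.14-fold lower, interval 2.02 to 2.28) were called lower. Of 17 crosslinking and hydroxylation genes 2 were called, both lysyl oxidases: Lox at 629.6 and 1543 CPM (2.45-fold higher, interval 2.41 to 2.49) and Loxl4 at 274 and 799 CPM (2.92-fold higher, interval 2.85 to 2.99). The collagen chaperone gene Serpinh1 was at 2361 and 2293 CPM.

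Protease genes had calls in both directions, beside 3.68% of all genes called higher and 3.18% called lower. Of 19 matrix metalloproteinases and inhibitors (21 listed), Mmp13 was called higher, and Mmp9, known from osteoclasts (15.9 and 3.68 CPM, 4.31-fold lower, interval 3.47 to 5.41), and Mmp15 (2.16 and 0.987 CPM) were called lower. Mmp2 (330.2 and 619 CPM) and Timp1 (215 and 415 CPM) stayed just under 2-fold. The ADAMTS family had 5 of 19 called higher and 1, Adamts16, lower (22 listed). Adamts18 (0.939 and 18.5 CPM), Adamts15 (1.17 and 9.75 CPM), Adamts17 (3.38 and 15.4 CPM), Adamts12 (22 and 86.6 CPM) and the procollagen peptidase Adamts2 (30.7 and 84.2 CPM) were higher. The aggrecanase genes Adamts4 (23.6 and 27.9 CPM) and Adamts5 (42.5 and 50.8 CPM) were not called.

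**Figure D3:**
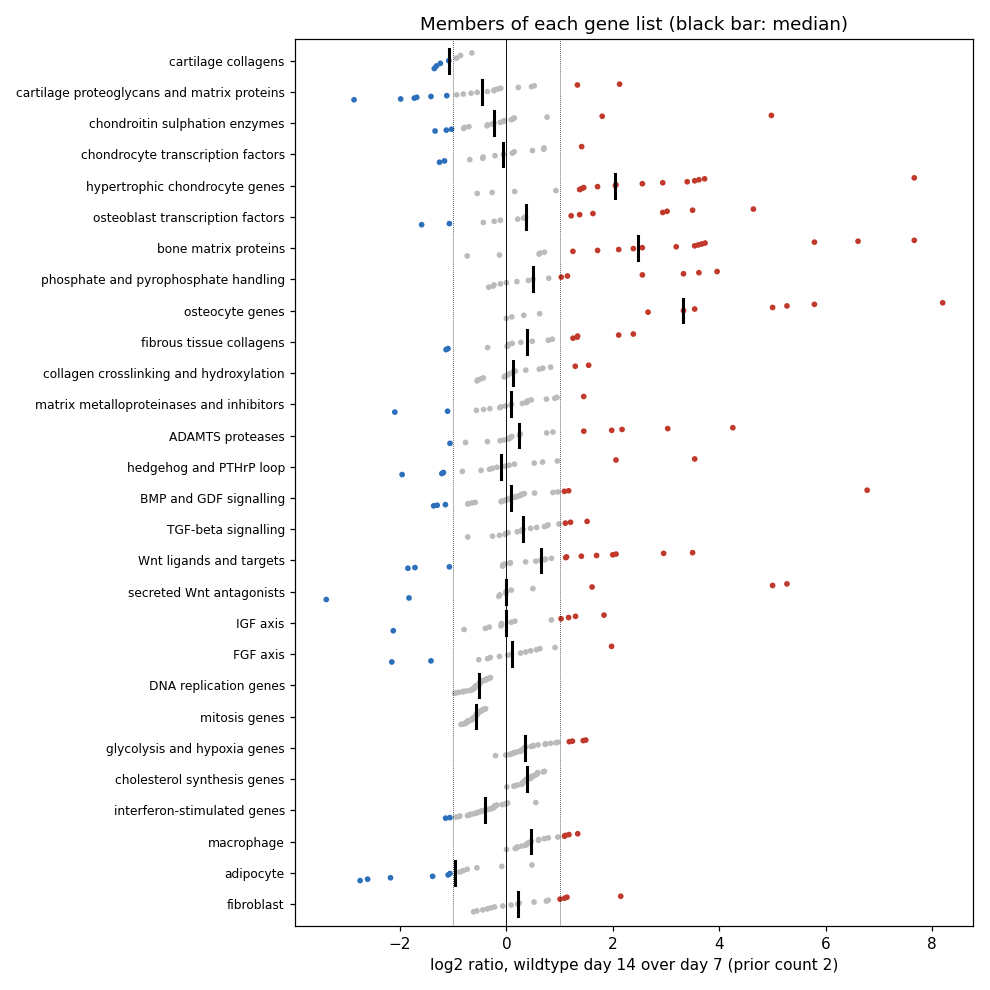
Log2 ratio of wildtype day 14 over day 7 (x axis) for each member at 1 CPM or more of 28 gene lists (rows); red points were called higher, blue lower, grey neither, and the black bar is the list median. Osteocyte, bone matrix and hypertrophic lists have medians of 3.33, 2.47 and 2.05, cartilage collagens and adipocyte markers lie on the lower side, and the replication and mitosis lists are narrow clusters between 0 and -1.

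Wnt genes were the signalling list with the most calls, 8 of 23 higher and 3 lower (28 listed), with a median log2 ratio of 0.64. The ligands Wnt10b (3.24 and 8.65 CPM) and Wnt4 (3.38 and 7.36 CPM), the receptors Lgr5 (1.68 and 6.79 CPM), Lgr6 (2.36 and 5.20 CPM) and Lrp4 (35.5 and 148 CPM, 4.17-fold higher, interval 3.91 to 4.45) were higher, as were Tcf7, Notum and Nkd2. Lrp4 is a receptor for sclerostin. Nkd1 (12.1 and 3.34 CPM, 3.64-fold lower, interval 2.88 to 4.63), the receptor gene Fzd9 (87.6 and 26.6 CPM, 3.30-fold lower, interval 3.04 to 3.59) and Lef1 were lower. The common feedback target Axin2 was at 4.27 and 6.26 CPM and was not called. Of 11 secreted Wnt antagonists, Sost, Dkk1 and Dkk2 were called higher and Sostdc1 and Sfrp5 lower, while Frzb (529 and 485 CPM) and Wif1 (114 and 160.3 CPM) were not called.

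BMP and GDF signalling had 3 of 28 called in each direction (29 listed). Bmp8a and the procollagen peptidase gene Bmp1 (118 and 265 CPM) were among those called higher, and Gdf5, Bmp5 (29.4 and 11.9 CPM) and the antagonist Chrdl2 (6.51 and 2.92 CPM) lower. The target genes Id2 (89.0 and 88.4 CPM) and Id3 (92.2 and 89.5 CPM) were level. Of 19 TGF-beta genes 3 were called higher, among them Ltbp2 (83.1 and 191 CPM) and Inhba (11.6 and 25 CPM). In the FGF axis (15 of 19 listed at 1 CPM) Spry1, a feedback inhibitor (3.50 and 13.9 CPM), was called higher, and Fgfr4 (5.35 and 1.18 CPM) and Fgfrl1 (199.8 and 74.7 CPM) lower. Fgfr3, the receptor that restrains growth plate proliferation, was at 1241, 433 and 302 CPM on days 3, 7 and 14 and was not called. No Notch gene was called among 8 of 14 listed.

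The 2 insulin-like growth factors differed in opposite directions. Igf2, the fetal growth factor, was at 13731 CPM on day 3, 6126 on day 7 and 1401 on day 14 (4.37-fold lower, interval 4.32 to 4.42). Igf1, its postnatal counterpart, was at 7.95 CPM on day 3, 95.5 on day 7 and 215 on day 14 (2.25-fold higher, interval 2.15 to 2.35). Pappa2, a protease that frees IGF from its binding proteins (12.8 and 45.6 CPM), Stc2 (19.8 and 48.7 CPM) and Igfbp2 (38.7 and 78.8 CPM) were also called higher. The receptor gene Igf1r was level at 86.0 and 95.9 CPM, and so was the binding protein gene Igfbp5 at 1207 and 1124 CPM.

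Igf2 is imprinted, and other imprinted genes stood out among the genes called lower, so a list of 62 of them was drawn up after the values were seen. Of the 52 that reached 1 CPM, 17 were called lower and 4 higher, with a median log2 ratio of -0.30, beside 3.18% and 3.68% of all genes. Since the list was prompted by the calls, its counts are a description. H19, the noncoding neighbour of Igf2, was at 11783 CPM on day 3, 5155 on day 7 and 2144 on day 14 (2.40-fold lower, interval 2.38 to 2.43). Peg3 was at 1147 and 358 CPM, Plagl1 at 667 and 278 CPM, Cdkn1c at 575 and 181 CPM and Magel2 at 7.25 and 0.607 CPM. The linked genes Dlk1, Meg3 (689 and 296 CPM), Rian (549 and 228 CPM) and Mirg (19.5 and 6.26 CPM) were called lower. Rtl1 (4.41 and 2.20 CPM, log2 ratio -0.99) and Dio3 (3.73 and 4.40 CPM, log2 ratio 0.24), from the same stretch of chromosome 12, were not called.

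Some members were not called lower. Mest was at 349.8 CPM at day 3 and 1564 and 1087 CPM at days 7 and 14 and was not called. Gnas (1134 and 954 CPM), Igf2r (557 and 423 CPM) and Grb10 (807 and 569 CPM) were not called either. Ano1 (4.75 and 33.8 CPM), Rasgrf1 (3.90 and 9.49 CPM), Sfmbt2 (5.60 and 12.3 CPM) and Htr2a (0.484 and 1.48 CPM) were called higher. Of the 17 called lower, 15 were also called lower in the Ezh2-deficient pair, beside 66.5% of all genes called lower in wildtype.

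**Figure D4:**
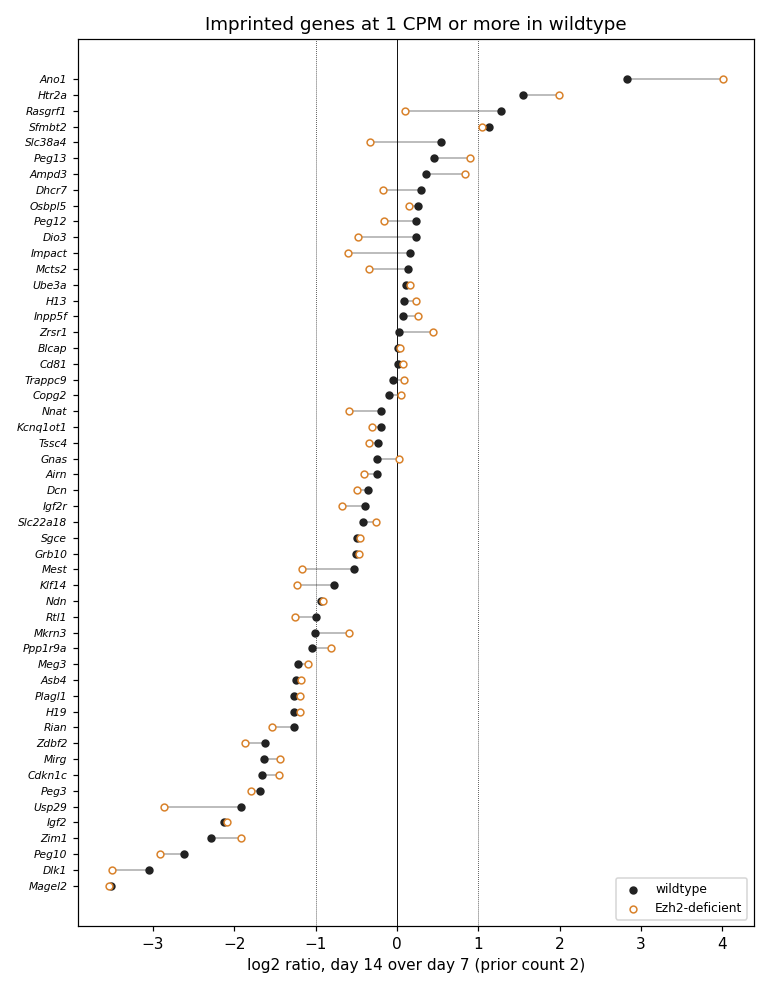
Log2 ratio of day 14 over day 7 (x axis) of the 52 imprinted genes at 1 CPM or more in wildtype (rows), filled black for wildtype and open orange for Ezh2-deficient, joined by a grey line; dotted lines mark 2-fold differences. The 15 rows from Magel2 to Meg3 lie left of the 2-fold line in both pairs, Ppp1r9a and Mkrn3 in wildtype only, and Ano1 lies far to the right at 2.82 and 4.01.

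Proliferation genes were lower by a small and even amount. All 35 mitosis genes were lower at day 14, each with an interval off 1, yet none reached 2-fold, and their median log2 ratio was -0.58. Mki67, the proliferation marker, was at 90.8 CPM on day 3, 422 on day 7 and 279.6 on day 14 (1.51-fold lower, interval 1.47 to 1.55), and Top2a, which untangles chromosomes, at 96.0 CPM on day 3, 388 on day 7 and 265 on day 14 (1.47-fold lower, interval 1.42 to 1.51). Replication genes were likewise all 35 lower, none called, and a median of -0.52. Mcm5, a subunit of the replicative helicase, came closest to the line at 74.6 and 38 CPM (1.96-fold lower, interval 1.82 to 2.11). Every mitosis gene was higher at day 14 than at day 3. The E2F letters TTTCCCGC were in the promoters of 5 of 29 matched replication genes (17.2%) and of 1.24% of all genes.

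Among cell-cycle inhibitors 2 of 15 were called higher and 1 lower. Cdkn1a, which encodes p21, was at 401 CPM on day 3, 172 on day 7 and 407 on day 14, lowest at day 7 (2.37-fold higher, interval 2.30 to 2.45). Cdkn2a, the Ink4a and Arf locus and a known Polycomb target, was at 0.665 CPM on day 3, 7.37 on day 7 and 21.7 on day 14 (2.95-fold higher, interval 2.54 to 3.43). Cdkn1c, which encodes p57 of postmitotic chondrocytes, was 3.17-fold lower (interval 3.07 to 3.27). The Polycomb complex itself had no called member among 11, with Suz12 at 74.1 and 80.5 CPM and Eed at 33.1 and 31.0 CPM.

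Metabolic genes differed modestly. Of 30 glycolysis and hypoxia genes, 28 were higher and 4 were called, with a median log2 ratio of 0.34. Car9, a carbonic anhydrase induced by low oxygen, was at 30.7 CPM on day 3, 118 on day 7 and 333 on day 14 (2.81-fold higher, interval 2.71 to 2.92). Ankrd37 (8.48 and 23.1 CPM), Aldoc (36.7 and 86.6 CPM) and Adm (12.3 and 27.9 CPM) were the others, while Ldha was at 1679.5 and 2018 CPM. All 25 cholesterol synthesis genes were higher, 22 with an interval above 1 and none by 2-fold, and their median was 0.38. Sqle, which makes squalene epoxide, was at 179 CPM on day 3, 109.8 on day 7 and 165 on day 14 (1.5-fold higher, interval 1.44 to 1.57), and Hmgcs1, which makes HMG-CoA, at 381 CPM on day 3, 289.7 on day 7 and 434 on day 14 (1.5-fold higher, interval 1.46 to 1.54). In the Ezh2-deficient pair 23 of the 25 were lower, with a median of -0.39, with Sqle at 121 and 92.4 CPM and Hmgcs1 at 299 and 232 CPM. In fatty acid synthesis 1 of 15 was called, Thrsp, lower at 15.6 and 6.26 CPM. The sterol element letters TCACNCCAC were in 1 of 17 matched promoters of the cholesterol synthesis list (5.88%) and in 1.44% of all.

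Stress pathways had few calls. Creb3l1, a membrane-bound factor that activates collagen secretion genes, was the 1 called member of 25 unfolded protein response genes, at 35.5 CPM on day 3, 41.8 on day 7 and 226 on day 14 (5.42-fold higher, interval 5.12 to 5.75). Hspa5, the main chaperone of that response, was at 979 and 936 CPM. Of 20 Atf4 target genes (21 listed) Vldlr (103 and 309 CPM), Stc2 and Aldh1l2 (47.8 and 115 CPM) were called higher, while Asns was level at 51.6 and 56.5 CPM after 377 CPM at day 3. No member was called among 27 lysosome genes, 24 immediate early genes, 78 cytosolic ribosomal protein genes or 79 oxidative phosphorylation genes, whose medians were 0.14, 0.17, -0.13 and -0.13.

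Interferon-stimulated genes were lower by a small amount, 29 of 31 with 2 called, and a median log2 ratio of -0.41. Ifit1, an antiviral RNA-binding protein, was at 2.90 CPM on day 3, 35.3 on day 7 and 15.9 on day 14 (2.21-fold lower, interval 1.98 to 2.48), and the transcription factor Irf7 at 3.02 CPM on day 3, 30.5 on day 7 and 14.6 on day 14 (2.09-fold lower, interval 1.86 to 2.36). The interferon-inducible GTPases Iigp1 (16.3 and 6.94 CPM), Gbp3 (19.4 and 8.80 CPM) and Gbp5 (2.10 and 1.02 CPM) and the interferon-induced chemokines Cxcl9 (3.87 and 0.721 CPM) and Cxcl10 (5.66 and 1.71 CPM) were called lower. The chemokine Ccl8 had 12 and 280 counts (0.171 and 5.31 CPM) and was called higher. In all, 3 of 12 GTPases (17 listed) were called lower, and of 19 chemokines (27 listed) 2 were called higher and 4 lower. Of 18 MHC class I genes (19 listed) H2-Q6 was called higher, at 2.47 and 5.24 CPM. In the promoter windows, 2 copies of GAAA spaced 2 bases apart, the interferon-stimulated response element, were in 10 of 22 matched promoters of the list (45.5%) and in 3.99% of all.

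Macrophage markers were higher together, 20 of 20 with a ratio above 1 (Msr1 by the least, at 45.9 and 46.0 CPM) and 4 called, and a median log2 ratio of 0.46. Lyz2, lysozyme, was at 84.7 CPM on day 3, 834 on day 7 and 1148 on day 14, Cd68 at 13.5 CPM on day 3, 108 on day 7 and 141 on day 14 and Csf1r, the receptor for the macrophage growth factor, at 14.8 CPM on day 3, 153 on day 7 and 177 on day 14. The called members were the scavenger receptor gene Mrc1 (82.1 and 185 CPM, 2.26-fold higher, interval 2.16 to 2.36), the complement genes C1qa (45.2 and 114 CPM, 2.53-fold higher, interval 2.38 to 2.69) and C1qb (68.5 and 146 CPM, 2.13-fold higher, interval 2.02 to 2.24), and Ms4a7 (23 and 49.6 CPM). Complement genes had 4 of 18 called higher and 1 lower (26 listed). Those called higher included C1qa, C1qb and Serping1, an inhibitor of the first complement component (11.4 and 40.0 CPM), and C4b, which has a near-identical copy in C4a, was lower (87.0 and 37.6 CPM). Inflammatory mediators had 2 of 17 called higher (28 listed), Ptgs2 (19.99 and 68.7 CPM, 3.44-fold higher, interval 3.15 to 3.75) and Lif (1.54 and 4.17 CPM), and Hp (49.5 and 20.1 CPM), Lcn2 (14.4 and 4.48 CPM) and Orm1 (1.79 and 0.721 CPM) called lower. The part of the macrophage markers in these complement and chemokine values was not tested.

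Of 10 osteoclast markers 6 reached 1 CPM. Acp5, tartrate-resistant acid phosphatase, was at 8.33 and 11.5 CPM, Dcstamp, Ocstamp, Oscar and Calcr were under 1 CPM, and Ctsk, which other mesenchymal cells also express, was at 204 and 270.0 CPM. Atp6v0d2, a proton pump subunit, was at 23.4 and 43.0 CPM. Mmp9 was the 1 called member, and it was lower. The RANK ligand gene Tnfsf11 was at 6.94 and 7.89 CPM and its decoy receptor gene Tnfrsf11b at 95.2 and 119 CPM.

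Adipocyte markers summed to 130.1, 734 and 456 CPM on days 3, 7 and 14. Of 12 at 1 CPM (13 listed), 11 were lower at day 14 and 6 of them were called. Adipoq, adiponectin, was at 1.57 CPM on day 3, 32.4 on day 7 and 4.78 on day 14 (6.77-fold lower, interval 5.63 to 8.21). The lipid droplet gene Plin1 was at 2.69 CPM on day 3, 22.3 on day 7 and 4.90 on day 14 (4.55-fold lower, interval 3.78 to 5.53), and the fatty acid carrier Fabp4 at 8.13 CPM on day 3, 96.2 on day 7 and 45.0 on day 14 (2.14-fold lower, interval 2.00 to 2.29). Retn, Cidea and Cidec were the other 3, and the lineage factor Pparg, at 13.1 and 7.82 CPM, was not called.

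Fibroblast markers had 4 of 17 called higher (18 listed): the matrix genes Tnc (88.4 CPM on day 3, 274 on day 7 and 1217 on day 14, 4.43-fold higher, interval 4.33 to 4.54), Postn (165 and 362 CPM, 2.20-fold higher, interval 2.13 to 2.27) and Lum (877 and 1872 CPM, 2.13-fold higher, interval 2.10 to 2.16), and Thy1 (43.7 and 87.9 CPM, 2.01-fold higher, interval 1.88 to 2.15), which sat on the 2-fold line. Pdgfra was level at 222 and 212 CPM. The summed fibroblast markers were 19610.0 CPM at day 7 and 25568 CPM at day 14, most of it Fn1 and Col3a1, and their part in the type I collagen values was not tested. The smooth muscle list had 1 of 10 called, Mcam, lower at 5.23 and 1.44 CPM (12 listed), and Acta2 was at 197 and 122 CPM. The lists for endothelium (sum 14.0 and 13.2 CPM), lymphocytes (3.38 and 5.54), neutrophils and mast cells (5.63 and 8.39), keratinocytes (12.9 and 15.9) and skeletal muscle (31.8 and 20.4) summed to low levels, with Pecam1, Cdh5, Cd3e, Krt5 and Myod1 under 1 CPM at both days. Of the neural list S100b, which chondrocytes also express, was called lower (242 and 97.8 CPM) and Tubb3 higher (0.313 and 6.83 CPM), while Sox10 and Gfap were under 1 CPM. The globin genes were listed at 0.

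The genes called between days 7 and 14 differed in where they stood at day 3. Of the 497 called higher, 360 were lowest at day 3, 116 lay between the other days and 21 were highest at day 3. Of the 430 called lower, 213 were highest at day 3, 126 lay between and 91 were lowest at day 3, among them Adipoq and Fabp4. Of the genes described above, Dmp1, Ibsp, Phex and Col1a1 were lowest at day 3, while Panx3, Cdkn1a and Loxl4 were lowest at day 7.

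The same interval in the Ezh2-deficient libraries shares no library with the wildtype pair. There 719 of 13550 genes (5.31%) were called higher and 790 (5.83%) lower. Of the 497 genes called higher in wildtype, 342 were called higher there as well, which is 68.8% of the wildtype calls and 47.6% of the Ezh2-deficient calls. Of the 430 called lower, 286 were called lower there, 66.5% and 36.2% of the respective calls. Across 13292 genes at 1 CPM in both pairs, Pearson's r of the log2 ratios was 0.815 and Spearman's rho 0.679, given as a description since genes are not independent replicates.

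Single genes differed in size between the pairs. Mmp13 was at 1302 and 1383 CPM in the Ezh2-deficient pair, between its wildtype levels of days 7 and 14 on both days (log2 ratio 0.087 against 1.45). Lum (0.26 against 1.09), Thy1 (0.0047 against 1.01), Igfbp2 (0.18 against 1.03) and Col3a1 (0.058 against 0.79) were under 2-fold there. Matn1 (-3.47 against -1.99) and Ucma (-4.42 against -2.87) were further below. Mitosis genes were also further below, 32 of 35 called lower with a median of -1.23, and 35 of 35 had the lower log2 ratio in the Ezh2-deficient pair. With 1 library for each genotype and day, none of these differences between the pairs was tested.

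**Figure D5:**
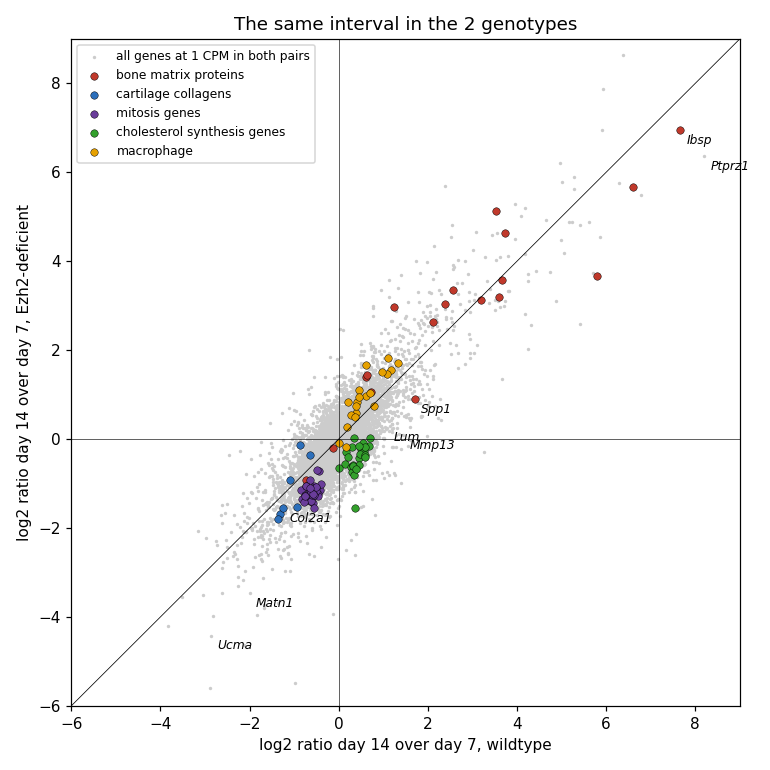
Log2 ratio of day 14 over day 7 in the Ezh2-deficient pair (y axis) against wildtype (x axis) for 13292 genes (grey; the few with a shared symbol drawn once), with 5 gene lists coloured and the line of equality drawn. Most bone matrix proteins lie at the upper right and cartilage collagens at the lower left of both axes, mitosis genes lie below the line, and cholesterol synthesis genes lie right of 0 and mostly under 0 on the y axis.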

How the data were processed

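RNA was measured in 6 libraries, 1 per genotype and day. The deposited table holds counts per gene and RPKM values side by side for each library. The authors made both, and CASAVA, TopHat, HTSeq and mouse build mm10 are named per the submitters' processing notes. The gene annotation, strand setting and filters are not given in the sources used here. The deposited counts were scaled with TMM in edgeR 4.0.16 over all 6 libraries (factors 1.07 at day 7 and 1.01 at day 14 in wildtype), and log2 ratios used a prior count of 2. The deposited RPKM served only to set levels of different genes side by side and as an alternative. Ratios carry exact (Clopper-Pearson) 95% intervals from fragments, made in Python 3.11.15 with scipy 1.17.1. A floor of 3 fragments was 0.0853 CPM at day 7 and 0.114 CPM at day 14. Calling was run on simulated counts that held counting error only and used no TMM step. That run checks the code and says nothing of the spread between cultures or of the scaling. Named genes were the 12 largest called ratios in each direction at 10 CPM or more, the 10 largest CPM differences in each direction, up to 6 called members of each list and a fixed set of markers. Predicted, clone and RNA-class symbols, Rn45s among them, were left out of both the ratio and the CPM rankings. Further members were named to account for a list. The comparison and its gene lists were chosen with earlier results of these data known, and the imprinted list after the values were seen. Other scalings, level floors, prior counts, a higher fold and the RPKM ratio were tried. Promoters came from RefSeq (GRCm38.p6) by symbol.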

Additional observations from a re-analysis of the deposited data

Results flagged for a closer look

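Cholesterol synthesis genes had a median log2 ratio of day 14 over day 7 of 0.38 in wildtype and -0.39 in the Ezh2-deficient pair. The list was flagged because the 2 medians had opposite signs. With TMM scaling 25 of 25 wildtype ratios lay above 1 and 23 of 25 Ezh2-deficient ratios below 1. The smallest wildtype log2 ratio was 0.0056, so the count of 25 rests on the scaling used. Ccr2, a chemokine receptor of monocytes, was the gene called in opposite directions in the 2 genotypes, with a log2 ratio of -1.03 in wildtype (2.5 and 1.21 CPM) and 1.04 in the Ezh2-deficient pair (0.992 and 2.08 CPM). Both are low levels, and the 20 macrophage markers were higher at day 14 in wildtype. With 1 library for each genotype and day, neither difference between the genotypes was tested.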

How the results depend on the processing

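With a level floor of 5 CPM, 325 genes were called higher and 234 lower, in place of 497 and 430, since fewer genes were examined. At a threshold of 4-fold, 150 were called higher and 67 lower. The other scalings, prior counts, counting units, RPKM ratios and the absence of a floor gave from 449 to 630 higher and from 391 to 617 lower. Scaling by total counts gave 452 higher and 521 lower. Of 183 named genes followed through these settings, 166 were called. None of the 166 was called in the other direction, but these settings could hardly reverse a call. A call is at least 2-fold, while the median log2 ratio of all genes ran only from -0.0949 to 0.0098 across the settings. Sizes were less steady than calls. The log2 ratio left its main interval for 63 of the 183 under total counts and 25 under scaling without the most abundant genes. Upper-quartile scaling moved 15 and RLE scaling 14. The printed intervals do not cover the choice of scaling. Most imprinted genes and some list members named in the text were not followed. Thy1 lost its call under upper-quartile scaling, total counts and scaling without the most abundant genes, Fetub, Flt1, H2-Q6, Hist2h3c1 and Igfbp2 under total counts, and Adamts16, Fetub, Flt1, Gbp5 and Hist2h3c2 with a prior count of 10. Under the RPKM ratio Fetub, H2-Q6, Hist2h3c1, Igfbp2 and Thy1 lost theirs. The floor of 5 CPM removed 24 of the 166 calls and the 4-fold threshold 104. Of 55 list medians, those of the IGF axis, inflammatory mediators and secreted Wnt antagonists changed sign, only under RLE scaling, and all 3 lie near 0. No paired analysis was possible because each genotype and day has 1 library, and for the same reason no replicate could be left out. Genes with few counts at day 7, such as Ptprz1, Bmp8a, Sost and Dkk1, have wide intervals. No interval here covers the spread between cultures, so a second pair of libraries could move any call.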

Other observations

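Immediate early genes, which are induced within minutes of a stimulus and include many transcription factors, had no called member among 24 in wildtype. There Fos was at 11.3 and 11.4 CPM and Egr1 at 76.1 and 86.0 CPM. In the Ezh2-deficient pair 8 of the 24 were called higher and 1 lower, with Fos at 8.65 and 23.3 CPM. Of 9 replication-dependent histone genes at 1 CPM or more (68 listed), Hist2h3c1 and Hist2h3c2, which are near-identical copies, were called higher. Among the largest CPM differences ranked was Lars2, the mitochondrial leucyl-tRNA synthetase gene, at 6303 CPM on day 3, 5531 on day 7 and 8661 on day 14. The share of counts on the ribosomal RNA entry Rn45s was also higher at day 14, at 1.66% on day 7 and 2.06% on day 14. A link between the Lars2 and Rn45s values was not tested.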
